A study of Mus musculus with 4 samples.

Results

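The mouse receptors followed here fall into 2 groups: the Fc gamma receptor genes Fcgr1, Fcgr2b, Fcgr3 and Fcgr4 with their signalling chain Fcer1g, and the scavenger and clearance receptor genes Msr1, Marco, Cd36, Mertk and Axl. These 10 genes were taken by symbol through their NCBI gene identifiers by a rule that holds no measured value, though with earlier results of these data known, and all 10 were listed in every library, among 15935 genes listed in any. The material was RNA of C57BL/6 bone marrow-derived macrophages, grown for 5 days from femur and tibia marrow of adult animals in medium conditioned with M-CSF, a macrophage growth factor. The KO animals were ezh2f/f lysmcre (genotype label EZH2-/-), in which Cre under the lysozyme M promoter deletes floxed Ezh2, and the WT animals were wild type. Ezh2 is the main H3K27 methyltransferase subunit of Polycomb repressive complex 2.

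Libraries were KO LPS, WT LPS, KO NT and WT NT, where LPS marks 2 h with lipopolysaccharide, the ligand of Toll-like receptor 4, and NT marks untreated cells. No Cre-only or flox-only control enters these groups, Cre from this promoter acts in myeloid cells including neutrophils, and the labels do not say how many animals gave the marrow. With a single library in each of the 4 groups there is no replicate check for any difference, and p-values are not given. The 95% intervals reflect counting error, and the spread between cultures or animals is unknown. The comparisons also share libraries, each library entering both an LPS and a genotype comparison. Total expected counts per library ran between 5237782 and 5678451. Ezh2 stood at 1.29 FPKM in KO LPS against 2.52 FPKM in WT LPS, and at 2.06 FPKM in KO NT against 2.84 FPKM in WT NT, from 18 to 43 counts. The ratio of KO to WT was 0.512 with LPS (interval 0.275 to 0.919) and 0.725 without (0.442 to 1.18), and the labels do not give the floxed exons. All 7 macrophage markers were detected in every library: Csf1r, Adgre1, Itgam, Cd68 and Ctss lay between 99.0 and 2555 FPKM, while Lyz2, typically very high in such cells, was at 11.6 to 22.4 FPKM. Its expected counts were fractional, as when reads are split with another gene, so its level is uncertain. Markers of T and NK cells summed to at most 0.91 FPKM, those of B cells to at most 3.71 and those of fibroblasts to at most 7.07.

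Fc gamma receptors bind the constant part of IgG and let macrophages take up and respond to antibody-coated targets. Activating receptors signal through an ITAM, a paired-tyrosine motif carried by the Fcer1g chain, and the kinase Syk, while Fcgr2b carries the inhibitory ITIM motif that recruits the phosphatase encoded by Inpp5d. Scavenger receptors bind modified lipoproteins, bacteria and debris, and the receptor tyrosine kinases Mertk and Axl bind apoptotic cells through the bridging proteins Gas6 and protein S.

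The promoters of Fcgr2b, Fcgr1 and Mertk are shown because these were the members furthest apart with LPS for which a promoter sequence was at hand. They run from 250 bases before to 50 bases after the RefSeq start, 300 bases each, on GRCm38.p6, and lie at chr1:170976022-170976321 (minus strand), chr3:96293920-96294219 (minus strand) and chr2:128698665-128698964 (plus strand). Capitals mark matches on either strand to any of 6 motifs.
Fcgr2b promoter: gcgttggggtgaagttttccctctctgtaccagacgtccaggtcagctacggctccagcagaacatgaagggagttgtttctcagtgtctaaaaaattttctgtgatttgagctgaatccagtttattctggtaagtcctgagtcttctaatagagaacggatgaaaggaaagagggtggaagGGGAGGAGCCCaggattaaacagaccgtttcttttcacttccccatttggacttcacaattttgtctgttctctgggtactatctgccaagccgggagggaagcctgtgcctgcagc
Fcgr1 promoter: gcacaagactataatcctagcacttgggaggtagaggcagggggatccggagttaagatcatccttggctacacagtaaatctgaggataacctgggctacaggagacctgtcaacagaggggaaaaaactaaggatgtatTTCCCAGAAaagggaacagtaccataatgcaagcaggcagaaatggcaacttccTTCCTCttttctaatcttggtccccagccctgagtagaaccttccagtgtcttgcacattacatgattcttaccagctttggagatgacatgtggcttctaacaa
Mertk promoter: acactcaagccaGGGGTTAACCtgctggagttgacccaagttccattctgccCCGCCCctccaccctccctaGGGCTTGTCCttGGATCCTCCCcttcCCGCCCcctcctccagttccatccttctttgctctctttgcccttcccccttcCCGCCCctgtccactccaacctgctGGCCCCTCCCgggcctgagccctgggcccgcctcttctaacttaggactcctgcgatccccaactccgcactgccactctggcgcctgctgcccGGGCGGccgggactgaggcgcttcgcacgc

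The motifs searched were kappa-B (GGG and CC with 5 bases of any kind between), an ETS core (GAGGAA), an interferon-stimulated element (GAAA and again GAAA with 2 bases of any kind between), a GAS element (TTCNNNGAA), an AP-1 site (TGANTCA) and a GC box (GGGCGG). In the Fcgr2b window the only match was to kappa-B, on both strands, overlapping itself, with first bases at -67 and -66 when the start base is 0. The Fcgr1 window held a GAS match at -109 and an ETS core match on the reverse strand at -55. Mertk had 4 GC boxes and 4 kappa-B matches in a window of 66% G and C, against a median of 52.7% over 32817 promoters. Among all those promoters 50.8% held the kappa-B letters, 35.6% a GC box, 28.3% the ETS core and 8.29% the GAS letters. Kappa-B letters also matched in the windows of Fcgr3, Fcgr4, Fcer1g, Marco, Cd36 and Axl, and not in that of Fcgr1, so they are not particular to Fcgr2b. A match describes the letters of a window, and no binding was measured here. AP-1 letters (7.81% of all promoters) had no match in the 9 members with a promoter sequence, and the interferon element (3.43%) matched in Fcgr4 only, at -73. Msr1 has no entry here.

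Fcgr2b and Fcgr3 lie near each other and share coding sequence, which matters for reading their counts. In the transcripts of GENCODE M21 that match the RefSeq entries, 166 windows of 50 bases were identical between them, 11.7% of the windows of the shorter Fcgr2b transcript (1462 bases) and 12.8% of those of Fcgr3 (1347 bases). Fcgr1 and Fcgr4 shared no such window with the other receptors. The longest identical run was 129 bases, all coding, over the junction of exons 3 and 4, spanning chr1:170966674-170968081 in Fcgr2b and chr1:171054167-171057792 in Fcgr3 on the minus strand of GRCm38, introns included. Capitals mark the 27 bases of exon 4.
Fcgr2b and Fcgr3 shared run: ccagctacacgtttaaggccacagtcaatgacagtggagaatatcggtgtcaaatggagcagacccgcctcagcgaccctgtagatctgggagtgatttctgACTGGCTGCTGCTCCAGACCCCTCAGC
The expected counts of both genes were fractional, as when reads are split between genes, so their single values are uncertain by that split. The other Fc gamma genes and Fcer1g had whole counts.

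**Figure D1:**
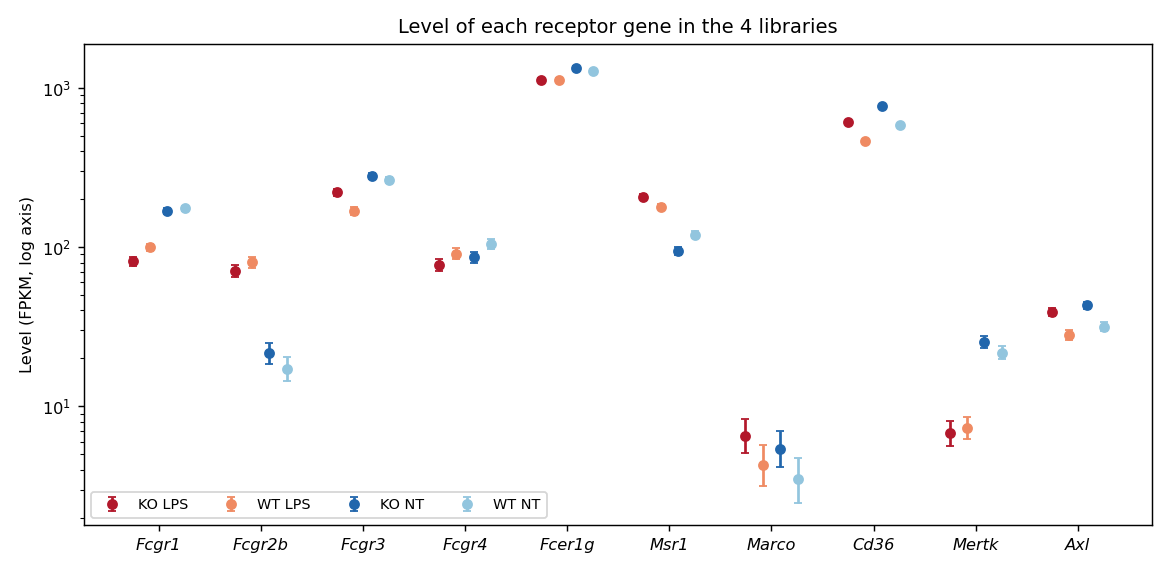
Level of each receptor gene in FPKM (log axis) in the KO LPS, WT LPS, KO NT and WT NT libraries. Points are the deposited FPKM and bars the 95% Poisson counting interval. Fcer1g is highest in every library, between 1119 and 1338 FPKM. Both LPS libraries stand above both NT libraries for Fcgr2b and Msr1, and below them for Fcgr1, Fcgr3, Fcer1g and Mertk.

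The order of levels put the common chain and Cd36 on top and Marco last in all 4 libraries. Fcer1g was at 1119 FPKM in KO LPS and 1124 in WT LPS, against 1338 in KO NT and 1280.3 in WT NT, and ranked between 25 and 47 among all genes. Cd36 was second. Without LPS the order then ran Fcgr3, Fcgr1, Msr1, Fcgr4, Axl, Mertk, Fcgr2b and Marco in both genotypes. The counting intervals of Mertk and Fcgr2b overlapped in both untreated libraries, and those of Msr1 and Fcgr4 overlapped in KO NT. With LPS, Fcgr2b stood above Axl and Mertk in both genotypes, and its interval overlapped that of Fcgr4. The intervals of Fcgr1 and Fcgr4 also overlapped with LPS, as did those of Fcgr3 and Msr1, and in KO LPS those of Mertk and Marco.

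The first question is how these receptors differed after 2 h of LPS. Fcgr2b was the member furthest above its untreated level and Mertk the one furthest below, in both genotypes. Msr1 was higher and Fcgr1 lower with LPS, and the other 6 genes were less than 2-fold apart. On the log2(FPKM + 1) scale, which understates differences of low genes, 2 of 10 members were at least 2-fold higher in KO (Fcgr2b and Msr1), where 6.61% of 11069 genes were, and 2 were at least 2-fold lower (Fcgr1 and Mertk), where 15.1% of genes were. In WT the numbers were 1 of 10 higher (Fcgr2b), against 6.41% of 10972 genes, and 1 of 10 lower (Mertk), against 17.2%. The members' median log2 fold was -0.20 in KO and -0.20 in WT, while the median over all genes was -0.42 and -0.46. Scaling the libraries by their median ratio brought the median of all genes to -0.03 in both genotypes and the members' medians to 0.22 in KO and 0.28 in WT. With that scaling Fcgr2b and Msr1 were at least 2-fold higher in KO, where 9.76% of genes were, and also in WT, where 9.62% were. Mertk alone was at least 2-fold lower, in KO beside 6.84% of genes and in WT beside 7.56%. Counting intervals of the ratio lay above 1 for 2 members in KO and 2 in WT, where they did for 14.4% and 13.2% of genes, and below 1 for 6 members in KO and 7 in WT, where they did for 57.8% and 61% of genes.

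**Figure D2:**
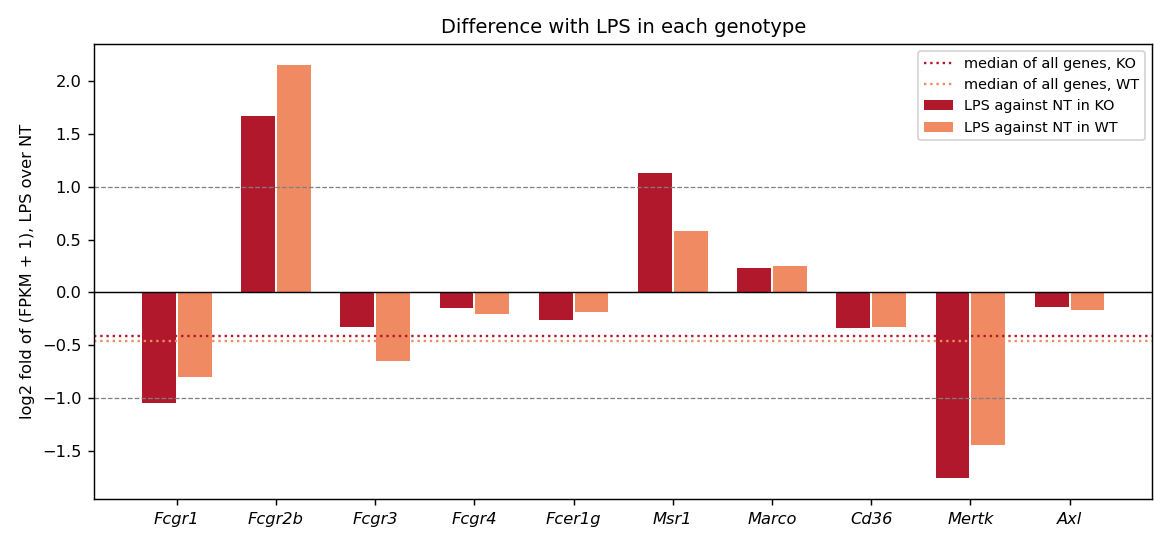
Log2 fold of FPKM + 1 of each receptor gene, LPS over NT, in KO (left bar) and WT (right bar). Dotted lines are the medians of all genes (-0.42 in KO, -0.46 in WT) and dashed lines mark 2-fold. Fcgr2b reaches 1.67 in KO and 2.16 in WT, and Mertk -1.76 and -1.45.

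Fcgr2b (gene ID 14130, chr1:170960558-170976071), the inhibitory receptor, had 70.6 FPKM in KO LPS and 80.2 in WT LPS, against 21.5 in KO NT and 17.2 in WT NT. Both LPS libraries were above both untreated ones. These rest on 527.53 expected counts in KO LPS and 646.91 in WT LPS, against 172.51 in KO NT and 137.68 in WT NT. The ratio of LPS to NT was 3.28 in KO (interval 2.76 to 3.92) and 4.66 in WT (3.87 to 5.64). The response in KO was 0.704 times that in WT (approximate interval 0.547 to 0.905). Of all 11320 genes, 15.1% differed at least as much between the 2 responses on the log2 scale. None of the 10 members had log2 responses that differed by 1 or more between the genotypes, where 1.9% of genes had a KO response higher by that much and 1.42% one lower.

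Fcgr1 (gene ID 14129, chr3:96282909-96293969), the high-affinity IgG receptor, was at 81.3 FPKM in KO LPS and 99.8 in WT LPS, against 169 in KO NT and 175 in WT NT. LPS libraries were the lower pair in both genotypes. The ratio of LPS to NT was 0.481 in KO (0.447 to 0.516) and 0.570 in WT (0.534 to 0.608), and log2 folds were -1.05 and -0.80. After median-ratio scaling they were -0.62 and -0.33, so Fcgr1 then stayed below 0 but no longer past 2-fold in KO.

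Fcgr3 (gene ID 14131, chr1:171051169-171065915), a low-affinity activating receptor, had 221 FPKM in KO LPS and 169 in WT LPS, against 278 in KO NT and 265 in WT NT. It was the highest of the 4 Fc gamma receptors in every library. The LPS to NT ratio was 0.794 in KO (0.743 to 0.848) and 0.637 in WT (0.593 to 0.684), and the log2 folds (-0.33 and -0.65) became 0.09 in KO and -0.17 in WT with median-ratio scaling, which turns the KO direction round. The KO response was 1.25 times the WT response (1.13 to 1.37).

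Fcgr4 (gene ID 246256, chr1:171018926-171029761), an activating receptor of intermediate affinity for some IgG subclasses, was at 77.5 FPKM in KO LPS and 91.0 in WT LPS, against 86.1 in KO NT and 105 in WT NT. These 4 values differ by at most 1.36-fold, and those of the LPS and untreated libraries overlap. LPS to NT ratios were 0.901 in KO (0.799 to 1.02) and 0.865 in WT (0.777 to 0.963). Fcer1g (gene ID 14127, chr1:171229572-171234349) had ratios of 0.837 in KO (0.802 to 0.873) and 0.878 in WT (0.842 to 0.915), the narrowest span of the 10 genes at 1.20-fold from lowest to highest. The log2 folds of both genes with LPS lay between -0.26 and -0.15 and turned positive, 0.17 to 0.29, with median-ratio scaling.

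Together these values set a different make-up with LPS for the Fc gamma receptor transcripts. Fcgr2b made up 15.7% of the summed FPKM of the 4 receptors in KO LPS and 18.2% in WT LPS, against 3.88% in KO NT and 3.06% in WT NT. By counts, which do not correct for length, its share was 14.3% in KO LPS (exact Clopper-Pearson interval 13.2 to 15.5), 16.1% in WT LPS (14.99 to 17.3), 3.22% in KO NT (2.76 to 3.73) and 2.52% in WT NT (2.12 to 2.97). No interval of an LPS library met one of an untreated library, and counting error is all these cover. The 3 activating receptors summed to 379.5 FPKM in KO LPS and 359.7 in WT LPS, against 533 in KO NT and 546 in WT NT. Their sum was 5.38 times the Fcgr2b level in KO LPS and 4.49 times in WT LPS, against 24.8 times in KO NT and 31.7 times in WT NT. Being ratios within a library, these do not depend on how libraries are scaled. RNA levels do not give the receptors on the surface.

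**Figure D3:**
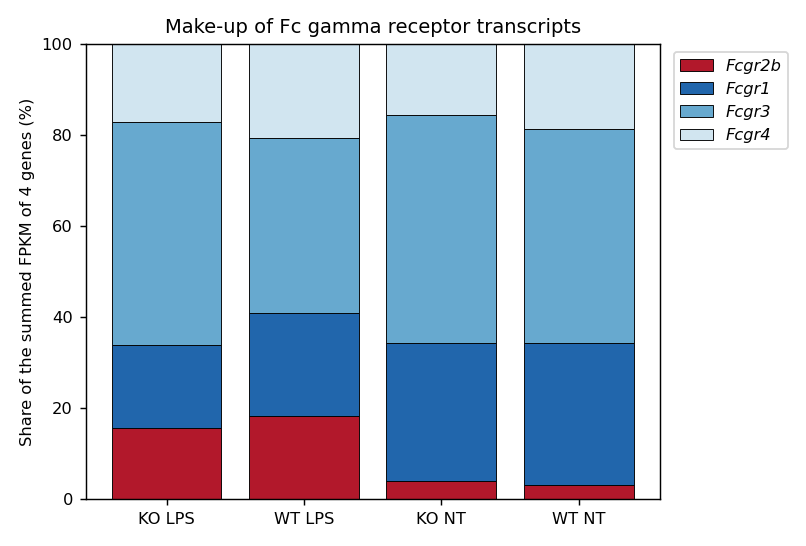
Share of each Fc gamma receptor gene in the summed FPKM of the 4 genes (%), per library. The Fcgr2b segment at the bottom is 15.7% in KO LPS and 18.2% in WT LPS, against 3.88% in KO NT and 3.06% in WT NT.

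Among scavenger receptors, Msr1 (gene ID 20288, chr8:39543232-39642750), which encodes class A receptor for modified lipoproteins and bacterial products, was at 208 FPKM in KO LPS and 179.6 in WT LPS, against 94.1 in KO NT and 119.6 in WT NT. The LPS libraries were the higher pair. The ratio of LPS to NT was 2.21 in KO (2.06 to 2.36) and 1.502 in WT (1.41 to 1.60). The KO response was 1.47 times the WT response (1.34 to 1.61), the widest gap between responses among the members in log2 terms (0.55), and 11.9% of all genes had a gap as wide. The deposited length of Msr1 also differed, at 2697 bases in KO LPS and 2779 in WT LPS, against 2339 in KO NT and 2450 in WT NT. GENCODE lists transcripts of 1424 and 3636 bases for its 2 RefSeq entries, and the deposited length of a gene with several transcripts depends on their mix. On counts at equal totals, with no length, the ratios were 2.55 in KO and 1.71 in WT.

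Marco (gene ID 17167, chr1:120474538-120505024), another class A scavenger receptor and known in mouse macrophages as an LPS-inducible gene, was low. It had 6.55 FPKM in KO LPS and 4.30 in WT LPS, against 5.43 in KO NT and 3.47 in WT NT, from 39 to 68 counts. The LPS to NT ratio was 1.21 in KO (0.841 to 1.73) and 1.24 in WT (0.795 to 1.94). Both intervals include 1, so on the deposited scale a difference with LPS was not detectable at this depth. Marco's log2 folds, 0.23 in KO and 0.25 in WT, became 0.60 and 0.63 with median-ratio scaling, for which no interval was computed. Cd36 (gene ID 12491, chr5:17781690-17888959), which takes up oxidised lipoproteins and fatty acids, was at 608 FPKM in KO LPS and 461 in WT LPS, against 767 in KO NT and 581 in WT NT. Its LPS to NT ratio was 0.793 in KO (0.774 to 0.813) and 0.794 in WT (0.773 to 0.816). These are log2 folds of -0.33 in both genotypes, and 0.09 and 0.15 with median-ratio scaling, where the direction flips.

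Mertk (gene ID 17289, chr2:128698915-128803162), the receptor that drives uptake of apoptotic cells in many macrophages, was at 6.76 FPKM in KO LPS and 7.32 in WT LPS, against 25.3 in KO NT and 21.7 in WT NT. Both LPS libraries were below both untreated ones. Its LPS to NT ratio was 0.267 in KO (0.218 to 0.325) and 0.338 in WT (0.279 to 0.408), and the interval of the ratio between the responses included 1 (0.791, 0.605 to 1.04). Axl (gene ID 26362, chr7:25756500-25788924), its relative, had 39.2 FPKM in KO LPS and 28.0 in WT LPS, against 43.1 in KO NT and 31.5 in WT NT. LPS to NT ratios were 0.909 in KO (0.837 to 0.988) and 0.887 in WT (0.806 to 0.977), and its log2 folds (-0.13 and -0.17) became 0.28 and 0.30 with median-ratio scaling. Axl was therefore 5.79 times the Mertk level in KO LPS and 3.82 times in WT LPS, against 1.70 times in KO NT and 1.46 times in WT NT. Tyro3, the remaining relative, had at most 0.09 FPKM.

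Markers of other cells were set beside these differences. The 7 macrophage markers summed to 4254 FPKM in KO LPS and 4384 in WT LPS, against 5430.1 in KO NT and 5246 in WT NT. In bulk RNA fewer cells of a type and less RNA per cell cannot be told apart, and the part of these markers in the receptor values was not tested. Mast cell markers, which share Fcer1g, summed to 5.87 FPKM in KO LPS and 5.74 in WT LPS, against 1.8 in KO NT and 2.13 in WT NT. Hdc made up most of the sum with LPS, and the mast cell genes Mcpt4, Tpsb2 and Fcer1a were at 0 in every library.

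The second question is what differed between KO and WT cells. With LPS 0 of 10 members were at least 2-fold higher, where 1.45% of 10375 genes were, and 0 of 10 were at least 2-fold lower, where 1.12% were. Without LPS these were 0 of 10 against 0.919% of 10990 genes, and 0 of 10 against 0.883%. With median-ratio scaling the counts were again 0 in each direction, where 1.34% of genes were higher and 1.36% lower with LPS, and 0.834% higher and 0.834% lower without. Smaller gaps were present: counting intervals lay above 1 for 5 members with LPS, as for 21.3% of 10251 genes, and below 1 for 3, as for 9.54%. Without LPS 5 lay above 1, as for 14.2% of 10883 genes, and 2 below, as for 11.6%. The members' median log2 fold was 0.10 with LPS and 0.14 without, beside 0.08 and 0.02 over all genes.

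Cd36, Axl and Marco were higher in KO in both states. The KO to WT ratio of Cd36 was 1.32 with LPS (1.28 to 1.36) and 1.32 without (1.29 to 1.35). For Axl it was 1.40 with LPS (1.28 to 1.54) and 1.37 without (1.25 to 1.49). For Marco the ratios, 1.52 (1.04 to 2.25) and 1.56 (1.03 to 2.40), rest on few counts. These 3 genes kept a positive log2 fold with median-ratio scaling and with counts at equal totals in place of FPKM. A change of pseudocount or filter cannot change the sign of a fold, so those settings did not test it. Every other member also kept its sign in both genotype comparisons, so this does not set the 3 apart. Fcgr4 was lower in KO in both states, at ratios of 0.852 with LPS (0.756 to 0.959) and 0.818 without (0.733 to 0.912).

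Other members differed between genotypes in 1 state, or in opposite directions. With LPS Fcgr3 was 1.31 times as high in KO as in WT (1.21 to 1.41) and Fcgr1 0.815 times as high (0.753 to 0.881), and without LPS the intervals of both included 1. Mertk had a ratio of 1.17 without LPS (1.03 to 1.33), and with LPS an interval that included 1 (0.923, 0.723 to 1.18). Msr1 stood on opposite sides: its KO to WT ratio was 1.16 with LPS (1.10 to 1.22) and 0.787 without (0.731 to 0.847). Fcgr2b had a ratio of 0.881 with LPS (0.784 to 0.989) and 1.25 without, where the interval included 1 (0.995 to 1.58). Fcer1g had ratios of 0.996 with LPS (0.953 to 1.04) and 1.05 without (1.004 to 1.09).

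**Figure D4:**
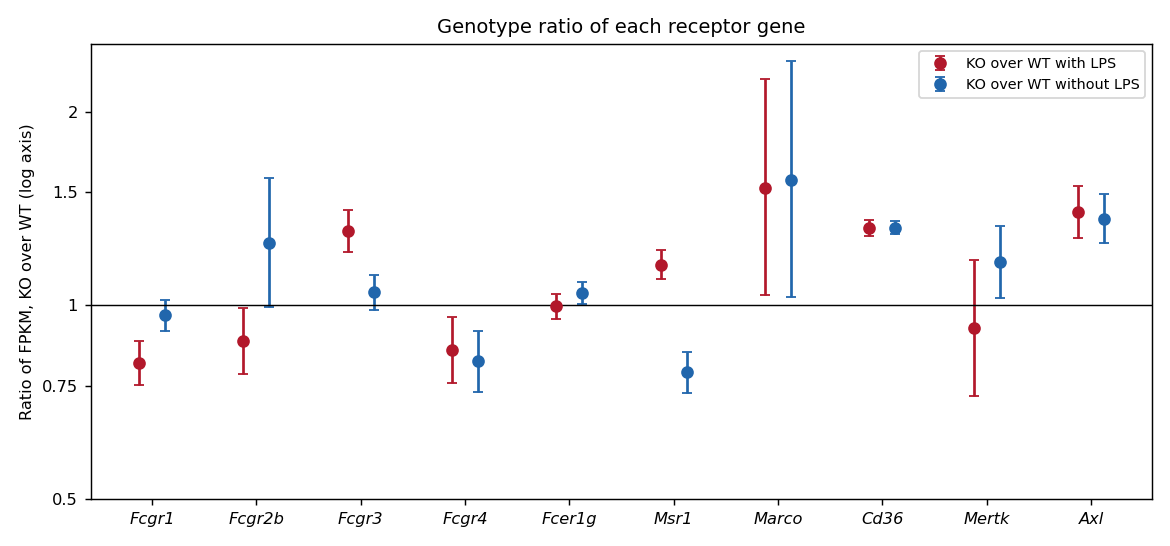
Ratio of FPKM, KO over WT (log axis), for each receptor gene with LPS (left point) and without (right point). Bars are exact 95% counting intervals. Cd36 sits at 1.32 in both states, Axl at 1.40 and 1.37, and Msr1 on opposite sides of 1 at 1.16 and 0.787.

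Neutrophil markers differed with genotype too. The 9 of them summed to 559 FPKM in KO LPS against 409 in WT LPS, and to 641 in KO NT against 376 in WT NT. S100a8 and S100a9 made up most of each sum. Of the neutrophil markers measured, 8 of 9 were above 0 on the log2 scale with LPS, where 6439 of 10375 genes were. Without LPS 7 of 8 were, where 5856 of 10990 genes were. Mpo went the other way there, at 3.56 FPKM in KO NT against 4.24 in WT NT, with a ratio interval that included 1 (0.569 to 1.23). Ly6g among the neutrophil markers was at 0 in KO NT and at most 1.18 FPKM elsewhere. The macrophage markers Adgre1 and Itgam were likewise higher in KO: Adgre1 at 486 FPKM in KO LPS against 370.0 in WT LPS, and at 557 in KO NT against 407 in WT NT. Itgam was at 134.6 FPKM in KO LPS against 99.0 in WT LPS, and at 161 in KO NT against 117 in WT NT. Fibroblast markers, none above 2.29 FPKM, summed to less in KO: 3.59 FPKM in KO LPS against 7.07 in WT LPS. Without LPS the sums were 3.69 in KO NT against 6.65 in WT NT. Of those measured, 3 of 4 were below 0 with LPS, where 3910 of 10375 genes were. Without LPS 3 of 3 were, where 5073 of 10990 genes were. Pdgfrb went the other way with LPS, at 1.22 FPKM in KO LPS against 0.91 in WT LPS. The part of neutrophil or macrophage marker differences in the receptor values was not tested.

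Genes that act with these receptors were taken from 4 lists, counted on the log2(FPKM + 1) scale beside the same shares of all genes as above (6.61% higher and 15.1% lower in KO, 6.41% and 17.2% in WT). Of the 20 genes of Fc receptor signalling, 4 stood past 2-fold above and 2 below their untreated levels with LPS in KO, and 3 above and 3 below in WT, with medians of -0.09 and -0.30. Src, a kinase of the family that phosphorylates ITAMs, was at 59.6 FPKM in KO LPS against 5.57 in KO NT, and at 55.3 in WT LPS against 8.50 in WT NT. Lcp2, the SLP-76 adaptor, was at 172 FPKM in KO LPS against 22.3 in KO NT, and at 165 in WT LPS against 19.7 in WT NT. Both were several times their untreated levels in each genotype. Syk, the kinase that docks on ITAMs, was 2.83 times its untreated FPKM in KO (2.70 to 2.96) and 2.36 times in WT (2.25 to 2.47). Among the 3 lowest were 2 negative regulators: the inositol phosphatase Inpp5d, the ITIM effector, at 0.472 times in KO and 0.438 times in WT, and the adaptor Dok1 at 0.485 and 0.399 times. The lipid kinase Pik3cd followed at 0.564 and 0.468 times. Fcgr2b and Inpp5d thus stood on opposite sides of their untreated levels. With median-ratio scaling Inpp5d, Dok1 and Pik3cd were no longer past 2-fold. In KO against WT none of the 20 was 2-fold apart on the log2(FPKM + 1) scale, but the Fgr kinase gene, low at 3.68 FPKM in KO LPS against 1.58 in WT LPS, had an FPKM ratio of 2.33 (1.49 to 3.72). With LPS all 20 were above 0 on the deposited scale (median 0.26, led by Fgr at 0.86), where 6439 of 10375 genes were (median 0.08), but with median-ratio scaling the median was 0.20 and Gab2, Lat2, Plcg2 and Lcp2 lay just below 0, between -0.04 and -0.01. Without LPS 11 were above 0 and 9 below, where 5856 of 10990 genes were above.

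Of 15 other scavenger receptor genes 11 were measured with LPS in each genotype. Olr1, the lectin-like receptor for oxidised LDL, was the single gene at least 2-fold higher and none was 2-fold lower on the log2(FPKM + 1) scale, and with median-ratio scaling Cxcl16 was past 2-fold too. Cd163, the haemoglobin scavenger receptor, was low, at 0.51 FPKM in KO LPS against 1.93 in KO NT and at 0.14 in WT LPS against 1.23 in WT NT. Its FPKM ratios were 0.264 in KO (0.128 to 0.503) and 0.114 in WT (0.0223 to 0.365), and the added 1 FPKM alone keeps its log2 folds at -0.96 and -0.97. Olr1 was at 22.8 FPKM in KO LPS against 0.30 in KO NT, and at 14.6 in WT LPS against 0.24 in WT NT, from 430, 5, 296 and 4 counts, so its ratios of 75.9 (32.3 to 235) and 60.7 (23.5 to 224) are loose. Cxcl16, a membrane chemokine that binds oxidised lipids, followed at 1.99 times its untreated level in KO and 1.93 times in WT. Stab1, a receptor for modified proteins and debris, was at 0.518 times in KO and 0.576 times in WT. Cd5l, a soluble member of the scavenger receptor cysteine-rich family, had the widest genotype gap among those measured on that log2 scale, at 19.5 FPKM in KO LPS against 11.0 in WT LPS, and at 26.2 in KO NT against 12.7 in WT NT, ratios of 1.78 (1.42 to 2.24) and 2.06 (1.68 to 2.52).

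Of 22 genes of apoptotic cell uptake 17 were measured. In each genotype 3 were at least 2-fold higher with LPS and 0 were 2-fold lower on the log2(FPKM + 1) scale, while the lipid exporter gene Abca1 was also past 2-fold higher with median-ratio scaling (1.20 in both genotypes). Abca7, its relative, had an FPKM ratio of 0.662 in KO (0.548 to 0.797) and 0.488 in WT (0.411 to 0.579). The integrin subunit Itgav was at 126 FPKM in KO LPS against 32.7 in KO NT, and at 90.6 in WT LPS against 22.6 in WT NT. The matrix protein gene Thbs1 and the phosphatidylserine receptor gene Timd4 made up the rest, Timd4 with 10 to 56 counts per library. The TAM ligands were lower with LPS: Gas6 was at 131 FPKM in KO LPS against 237 in KO NT, and at 111 in WT LPS against 187 in WT NT, while Pros1, the protein S gene, stood at 0.611 times its untreated level in KO and 0.582 times in WT. Both ligands were higher in KO: Gas6 at 1.18 times WT with LPS (1.10 to 1.26) and 1.27 times without (1.21 to 1.33), and Pros1 at 1.72 (1.27 to 2.33) and 1.63 (1.305 to 2.05). In all, 15 of 17 were above 0 in KO against WT with LPS and 14 of 17 without, at medians of 0.24 and 0.26. Over all genes 6439 of 10375 were above 0 with LPS and 5856 of 10990 without, at medians of 0.08 and 0.02.

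The remaining list, of other Fc receptors, had 3 of 12 genes measured. Fcgrt, the neonatal IgG receptor, was at 18.8 FPKM in KO LPS against 31.4 in KO NT, and at 15.7 in WT LPS against 22.2 in WT NT. Trim21, a cytosolic antibody receptor, was at 39.3 FPKM in KO LPS against 26.7 in KO NT, and at 53.8 in WT LPS against 25.4 in WT NT, and with LPS its KO to WT ratio was 0.730 (0.656 to 0.813). Fcrl1, an Fc receptor-like gene known from B cells, had FPKM ratios of LPS to NT of 0.477 in KO and 0.465 in WT. It was at 6.55 FPKM in KO LPS and 5.74 in WT LPS, against 13.7 in KO NT and 12.4 in WT NT.

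**Figure D5:**
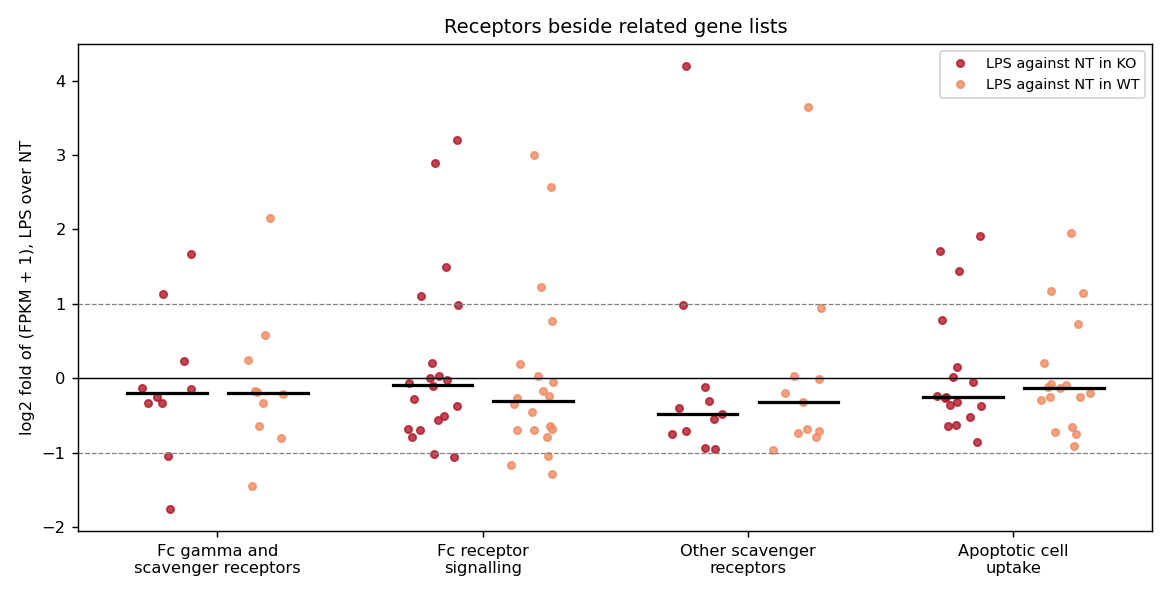
Log2 fold of FPKM + 1, LPS over NT, of the measured genes in 4 lists, with KO points left of WT points in each. Each point is a gene, black bars are medians (-0.20 in KO and -0.20 in WT for the Fc gamma and scavenger receptors), and dashed lines mark 2-fold.

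Fcgr2b, Fcgr4, Fcgr3 and Fcer1g lie in this order within 274 kb of chromosome 1, with 7 other protein-coding genes that lie between Fcgr3 and Fcer1g, 5 of which reached 1 FPKM. This set was taken after the values were seen. None of those 5 was higher with LPS on the deposited scale, while Sdhc, with median-ratio scaling, was at a log2 fold of 0.28 in WT and -0.03 in KO. Sdhc, a subunit of succinate dehydrogenase, was at 85.3 FPKM in KO LPS against 117 in KO NT, and at 88.1 in WT LPS against 101 in WT NT. Pcp4l1 was at 35.3 FPKM in KO LPS against 62.9 in KO NT, and at 18.5 in WT LPS against 34.1 in WT NT. On the deposited scale Fcgr2b was the only gene of the stretch, among those with at least 1 FPKM in any library, above its untreated level. Most genes were lower on that scale: log2 folds lay below 0 for 8477 of 11069 genes in KO and 8593 of 10972 in WT. With median-ratio scaling Fcgr4 (0.27 in both genotypes), Fcer1g (0.17 in KO and 0.29 in WT) and Fcgr3 (0.09, KO only) were above 0 too.

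For 8 of the members, the gene with the most similar profile over the 4 libraries is given, found among 9203 genes, by the Euclidean distance between centred log2(FPKM + 1) values. Nearest to Fcgr2b was Gpr85, at 29.7 FPKM in KO LPS and 33.1 in WT LPS, against 8.22 in KO NT and 7.26 in WT NT (distance 0.11). Mertk was closest to Smim20 (0.03), Fcgr1 to Gpd1l (0.02), Fcgr3 to Msh3 (0.04), Fcgr4 to Psg16 (0.02), Fcer1g to Itpr2 (0.02), Cd36 to Pid1 (0.03) and Marco to Cd74 (0.06). With 4 values per gene, close profiles are common and these names carry no more than the distance.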

How the data were processed

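The deposited tables hold, per library and NCBI gene identifier, an expected count and an FPKM. Per the submitters' processing notes the authors used Bowtie, RSEM and mm10; their versions, the annotation, the strand setting and any filters were not stated. The deposited expected count, an estimate by RSEM, need not be whole, and the deposited FPKM is the authors' value per kilobase and library size. A length column, per the file headers, gives bases. A gene missing from a table was set to 0. Of 15935 identifiers, 15897 matched a RefSeq table of GRCm38.p6, which gave symbols, coordinates and promoters.

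A fold is the difference between log2(FPKM + 1) values, computed where either library reached 1 FPKM, and genes past 2-fold were counted. Ratios of FPKM carry exact Clopper-Pearson 95% intervals from the rounded counts at the library totals, levels Poisson intervals, and the ratio of responses an approximate interval from the 4 counts. PCR copies of one molecule are counted as separate reads, so these cover counting error only. With 1 library per group no test was run. The members, the 4 related lists and the markers were chosen with earlier results of these data known. Members were all named; of each list up to 3 genes with the highest and lowest folds among those of at least 50 counts were eligible, and some others were named after their values were seen. The genes nearest in profile to Msr1 and Axl are not reported here. The code was tested on simulated counts. Python 3.11.15, numpy 2.4.6, pandas 2.3.3 and scipy 1.17.1 were used.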

Additional observations from a re-analysis of the deposited data

Results flagged for a closer look

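Msr1 differed between genotypes in opposite directions in the 2 states: the KO to WT ratio of FPKM was 1.16 with LPS and 0.787 without. With 1 library per group the difference between the states was not tested.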

How the results depend on the processing

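The 8 alternatives gave 64 values for the counts of members past 2-fold, of which 58 were within 1.5 times the reported count and 6 were not. In KO with LPS against NT, the 2 members at least 2-fold lower became 1 (Mertk) with median-ratio scaling and 1 at 3-fold, and the 2 higher became 1 (Fcgr2b) at 3-fold. In WT, the 1 member higher became 2 (Fcgr2b and Msr1) with median-ratio scaling, and the 1 lower became 3 (Fcgr1, Fcgr3 and Mertk) at 1.5-fold and 0 at 3-fold. In KO against WT the counts were 0 under every alternative. Of 239 alternative values of single log2 folds 215 stayed within the counting error of the reported value. That number includes the changes of filter, which leave a single fold as it is and so could not move it. With median-ratio scaling every fold with LPS against NT moved past its counting error, in both genotypes, except those of Marco. Changes of pseudocount or filter, which are among the 239 values, cannot change a sign. Of the 239 values 9 changed sign, all 9 with median-ratio scaling. These were folds with LPS of Fcgr3 (KO only), Fcgr4, Fcer1g, Cd36 and Axl. No fold past 2-fold changed sign. No paired analysis was possible because each group has 1 library. Precision is limited most for Marco, of 39 to 68 counts. A replicate would be needed to separate any of these differences from the spread between cultures.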
